A study of Mus musculus with 58 samples.

Results

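Inguinal and interscapular adipose tissue were compared across temperatures in the ribosome-bound mRNA of mouse adipocytes. For each row of the deposited table, the difference was the mean of the 3 inguinal group means minus the mean of the 2 interscapular group means, on a log2 scale of library-scaled read counts (log2 CPM). On this scale 0 stands for 1 CPM, a negative value for less than 1 CPM, and a difference of 1 for a doubling. The genes described here are those for which every inguinal library lay on one side of every interscapular library. They numbered 1644 of 11603 rows (14.2%). In 909 of them (7.83% of all rows) every inguinal library lay above every interscapular one, and in 735 (6.33%) every inguinal library lay below. Since this rule used the depot difference itself, the differences of these genes are given as descriptions, without a test.

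The comparison used 22 of the 58 samples of the series, all of them C57BL/6J mice fed chow. Inguinal white adipose tissue (iWAT) was taken from mice kept at 4 °C for 1 week and then at 30 °C for 4 weeks (warm beige, n = 3), from mice kept at 4 °C for 1 week (cold beige, n = 4), and from mice born and kept at 30 °C (warm white, n = 5). Interscapular brown adipose tissue (BAT) was taken after the same rewarming (warm brown, n = 5) and after the same cold exposure (cold brown, n = 5). The labels give a husbandry temperature of 23 °C for the beige and brown groups and none for warm white. The mice were NuTRAP animals, whose ribosomes carry GFP wherever a Cre recombinase is active, and the ribosome-bound mRNA was recovered with an antibody against GFP. Ucp1-NuTRAP and Adipoq-NuTRAP lines are named, driven by a gene of thermogenic adipocytes and by a gene of adipocytes at large, with no line stated for single libraries. A difference between lines and a difference between depots cannot be told apart here. Ages and sexes were not given in the sources used. The Y chromosome genes Ddx3y, Eif2s3y, Uty and Kdm5d were expressed in all 22 libraries, Ddx3y at 7.46 to 8.51 log2 CPM. No warm-reared brown group was among the libraries, so white adipocytes had no partner of the same rearing in the interscapular depot.

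Brown adipocytes dissipate energy as heat through uncoupling protein 1 in the inner mitochondrial membrane, white adipocytes store triglyceride, and beige adipocytes are thermogenic cells that appear in white depots such as the inguinal one on cold exposure. The interscapular and inguinal depots also lie in different parts of the body and arise from different embryonic lineages. Homeobox genes of the Hox clusters, transcription factors arranged along the chromosome in the order in which they act along the body axis, keep part of this positional pattern in adult adipose tissue.

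The adipocyte markers were present in both depots. The summed level of 10 adipocyte genes ranged from 15300 to 21700 CPM in inguinal libraries and from 12100 to 15300 CPM in brown libraries. The adiponectin gene Adipoq averaged 9.33 log2 CPM in the inguinal depot and 9.48 log2 CPM in the brown depot, and did not pass the test (log2 difference −0.15 ± 0.09 SE, adjusted p = 0.13, limma with Benjamini-Hochberg adjustment over all rows). Markers of other cell types were present too. In bulk libraries such as these, fewer cells of a type and less RNA per cell cannot be told apart. The summed level of 14 fibroblast and preadipocyte genes ranged from 1690 to 14200 CPM in inguinal libraries and from 161 to 1170 CPM in brown libraries, and that of 8 macrophage genes from 54.4 to 184 CPM in inguinal libraries and from 8.47 to 28.8 CPM in brown libraries. Within the cold groups, cold beige 1 and 4 and cold brown 1 and 5 held more of the endothelial markers than the other libraries of their group. Warm white 2 held 954 CPM of skeletal muscle markers, where the other white libraries held at most 75.4 CPM, and warm beige 1 and 2 held 496 and 473 CPM, where warm beige 3 held 121 CPM. The floor values divided the libraries into sets of 10 and 12, called batch 1 and batch 2, and each group was present in both. Warm beige 3 was the only warm beige library of batch 1.

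**Figure D1:**
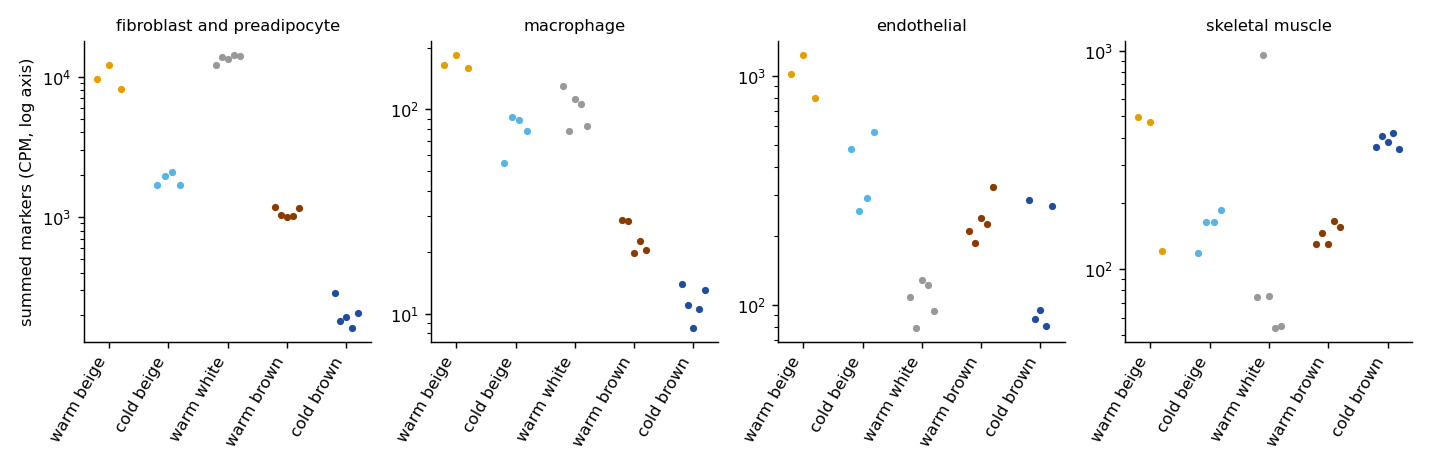
Summed level in CPM (log axis) of the fibroblast and preadipocyte, macrophage, endothelial and skeletal muscle markers, with 1 point for each of the 22 libraries. The fibroblast sums of all inguinal libraries (1690 to 14200 CPM) lie above those of all brown libraries (161 to 1170 CPM), and the endothelial sums overlap.

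Positional genes were among those without overlap. On mouse chromosome 6, neighbouring genes of the Hoxa cluster lay on opposite sides: Hoxa10 and Hoxa9 were higher in inguinal fat and Hoxa5 was lower. Zic1 on chromosome 9, a zinc-finger transcription factor used as a mark of the interscapular depot, was at the floor of the table in every inguinal library. The promoters of these 4 genes, and of the homeobox gene Emx2, are shown because the text below turns on their levels. Each run covers 250 bases before to 50 bases after the start of a transcript (RefSeq, GRCm38.p6), written 5′ to 3′ on the strand of the gene. Capitals mark a TATAAA or CCAAT box on either strand, which reads TTTATA or ATTGG where it lies on the opposite strand. Hoxa10 had 2 windows.
Hoxa10, first window, chr6:52240805-52241104, minus strand: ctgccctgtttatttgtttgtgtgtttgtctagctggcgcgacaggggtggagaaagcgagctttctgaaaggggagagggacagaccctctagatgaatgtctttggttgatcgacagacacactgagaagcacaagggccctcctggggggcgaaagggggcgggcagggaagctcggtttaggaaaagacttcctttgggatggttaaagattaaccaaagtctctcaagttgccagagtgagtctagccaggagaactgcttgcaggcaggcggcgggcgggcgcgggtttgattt
Hoxa10, second window, chr6:52234890-52235189, minus strand: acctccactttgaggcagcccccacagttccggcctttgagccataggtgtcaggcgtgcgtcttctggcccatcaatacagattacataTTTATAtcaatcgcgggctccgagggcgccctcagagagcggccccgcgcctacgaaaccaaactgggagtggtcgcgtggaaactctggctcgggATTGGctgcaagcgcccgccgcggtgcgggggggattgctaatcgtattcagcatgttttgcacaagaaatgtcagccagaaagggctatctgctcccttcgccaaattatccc
Hoxa9, chr6:52227321-52227620, minus strand: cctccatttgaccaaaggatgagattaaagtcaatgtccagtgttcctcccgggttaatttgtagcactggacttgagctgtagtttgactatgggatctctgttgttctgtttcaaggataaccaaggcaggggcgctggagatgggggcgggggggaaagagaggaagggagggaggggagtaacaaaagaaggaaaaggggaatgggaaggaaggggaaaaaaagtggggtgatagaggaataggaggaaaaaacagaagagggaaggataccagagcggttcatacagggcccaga
Hoxa5, chr6:52204538-52204837, minus strand: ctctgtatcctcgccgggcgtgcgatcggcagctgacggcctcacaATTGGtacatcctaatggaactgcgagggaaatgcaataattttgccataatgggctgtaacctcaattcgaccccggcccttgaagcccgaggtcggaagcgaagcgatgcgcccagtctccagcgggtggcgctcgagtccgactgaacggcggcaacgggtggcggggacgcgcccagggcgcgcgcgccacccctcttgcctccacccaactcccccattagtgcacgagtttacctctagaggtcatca
Emx2, chr19:59458440-59458739, plus strand: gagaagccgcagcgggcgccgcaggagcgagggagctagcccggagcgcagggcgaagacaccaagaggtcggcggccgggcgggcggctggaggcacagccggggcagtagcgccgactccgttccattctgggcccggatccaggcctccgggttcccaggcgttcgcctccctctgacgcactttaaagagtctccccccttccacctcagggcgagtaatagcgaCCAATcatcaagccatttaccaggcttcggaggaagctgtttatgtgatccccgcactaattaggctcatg
Zic1, chr9:91365719-91366018, minus strand: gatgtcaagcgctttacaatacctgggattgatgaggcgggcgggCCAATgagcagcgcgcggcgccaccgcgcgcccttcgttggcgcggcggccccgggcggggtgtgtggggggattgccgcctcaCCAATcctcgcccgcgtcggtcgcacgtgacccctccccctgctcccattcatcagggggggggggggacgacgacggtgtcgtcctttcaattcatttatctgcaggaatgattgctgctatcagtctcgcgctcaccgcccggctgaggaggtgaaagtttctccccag

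Over all rows of the table with a window, 6.99% of 11038 promoter windows held TATAAA and 36.9% held CCAAT. Among genes higher in every inguinal library the shares were 8.70% and 36.1% of 839 windows, and among genes lower in every inguinal library 5.82% and 40.2% of 722 windows. The half-site AAGGTCA, bound by oestrogen-related receptors, lay in 2.98%, 3.19% and 3.20% of the windows of the higher genes, the lower genes and all rows. The palindromic motif of early B cell factors lay in 1.43%, 0.416% and 1.04%. Both strands were searched for each motif, windows of 1 gene can overlap, and a match describes letters and not a bound site. The median number of CpG dinucleotides was 18 in windows of higher genes, 20 in windows of lower genes and 21 over all rows.

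Hoxa10 (chromosome 6, 52231197 to 52240854) had the widest gap between its nearest libraries (9.98 log2 units), a size that rests on brown values at the floor. It measured 4.70, 4.68 and 4.46 log2 CPM in warm beige, 4.64, 4.61, 4.51 and 4.22 in cold beige, and 5.60, 5.13, 5.04, 4.93 and 5.16 in warm white. All 10 brown libraries lay between −5.80 and −5.76, at the floor of the table (at or below −5 log2 CPM), so no fold is given. Hoxa10 was present in each inguinal library and at the floor in each brown one. Rewarming moved it by 0.12 ± 0.28 in beige fat (adjusted p = 0.71, limma), and warm beige lay 0.56 ± 0.27 below warm white (log2 difference −0.56, adjusted p = 0.10). Every warm white library nevertheless lay above every warm beige one. The SE is moderated toward that of rows with a similar mean over all libraries, and brown values at the floor lower this mean. A test not passed therefore does not show a steady level here.

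Hoxc10 and Hoxc9 on chromosome 15 shared this pattern. Hoxc10 measured 3.97, 4.29 and 4.35 log2 CPM in warm beige, 4.47, 4.69, 4.80 and 4.82 in cold beige and 4.35 to 4.92 in warm white, with all 10 brown libraries at −5.80 or −5.77. Hoxc9 measured 3.46, 3.85 and 3.73 in warm beige, 3.27, 3.06, 3.49 and 3.08 in cold beige and 4.12 to 4.73 in warm white, with all brown libraries at −5.82 or −5.74. Neither gene passed the limma test for warming within beige fat (adjusted p = 0.13 for Hoxc10 and 0.23 for Hoxc9), with the limit given for Hoxa10. Every cold beige library of Hoxc10 lay above every warm beige one. Of the next genes on that cluster, Hoxc8 lay above brown in every inguinal library (4.61 to 6.32 log2 CPM in inguinal and −3.80 to 1.78 in brown libraries). Hoxc6 was 0.99 ± 0.08 log2 units higher in inguinal fat with overlapping libraries (adjusted p = 8.0e-11, limma), and Hoxc5 and Hoxc4 were lower by −0.58 ± 0.07 (adjusted p = 7.4e-08) and −0.66 ± 0.12 (adjusted p = 1.9e-05). Within batch 1 Hoxc4 was at −0.40. Along the Hoxc cluster the genes with higher numbers were thus the inguinal ones, and those with lower numbers were higher in brown fat.

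The Hoxa cluster showed the same order. Hoxa9 measured 4.66, 5.05 and 4.45 log2 CPM in warm beige, 3.90, 3.99, 4.36 and 3.88 in cold beige and 4.34 to 4.94 in warm white. In brown fat it measured 0.47 to 1.39 in warm libraries and −1.01 to 0.75 in cold ones, and the depots were 2.49 log2 units apart at their nearest libraries. Hoxa7 was 0.72 ± 0.12 higher in inguinal fat but overlapped (adjusted p = 8.0e-06, limma).

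Hoxa5 (chromosome 6, 52201754 to 52204587) turned the other way, with 2.27, 2.38 and 2.89 log2 CPM in warm beige, 2.22, 2.32, 2.02 and 2.08 in cold beige and 0.64 to 1.87 in warm white. It measured 4.93, 5.05, 5.37, 5.20 and 5.14 in warm brown and 4.72, 4.78, 4.85, 4.81 and 4.65 in cold brown, and the depots were 1.76 log2 units apart at their nearest libraries. Its difference was −2.60 ± 0.19 between the cold groups and −2.62 ± 0.20 between the rewarmed groups, and the difference between these 2 values was −0.02 ± 0.28 (adjusted p = 0.96, limma). Hoxa4 was lower in inguinal fat too (−2.30 ± 0.19, adjusted p = 1.1e-10), mainly after rewarming: −2.90 ± 0.32 between the rewarmed groups and −0.74 ± 0.29 between the cold groups (depot by temperature −2.16 ± 0.43, adjusted p = 2.7e-04). Hoxa3 was lower by −0.86 ± 0.21 (adjusted p = 6.3e-04), and by −0.39 within batch 1.

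In the Hoxb cluster on chromosome 11, Hoxb7 and Hoxb6 lay above brown in every inguinal library. Hoxb7 ranged from 1.58 to 3.92 log2 CPM in inguinal and −3.65 to −0.40 in brown libraries. Hoxb6 ranged from 0.93 to 2.93 in inguinal and −3.97 to −0.61 in brown libraries. Hoxb4 was 0.69 ± 0.09 higher with overlap (adjusted p = 4.7e-07, limma). Hoxb3 and Hoxb2 did not pass the test (−0.08 ± 0.13, adjusted p = 0.55, and −0.05 ± 0.13, adjusted p = 0.74), and the sign of both changed under other settings, among them a total without the 20 highest rows. From the Hoxd cluster on chromosome 2, Hoxd9 was 2.76 ± 0.31 higher in inguinal fat (adjusted p = 2.3e-08) and Hoxd8 lower by −0.56 ± 0.12 (adjusted p = 1.7e-04), both with overlap. The call of Hoxd8 ended with 2 groups of libraries of equal weight (−0.38), and its value was −0.31 within batch 1.

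**Figure D2:**
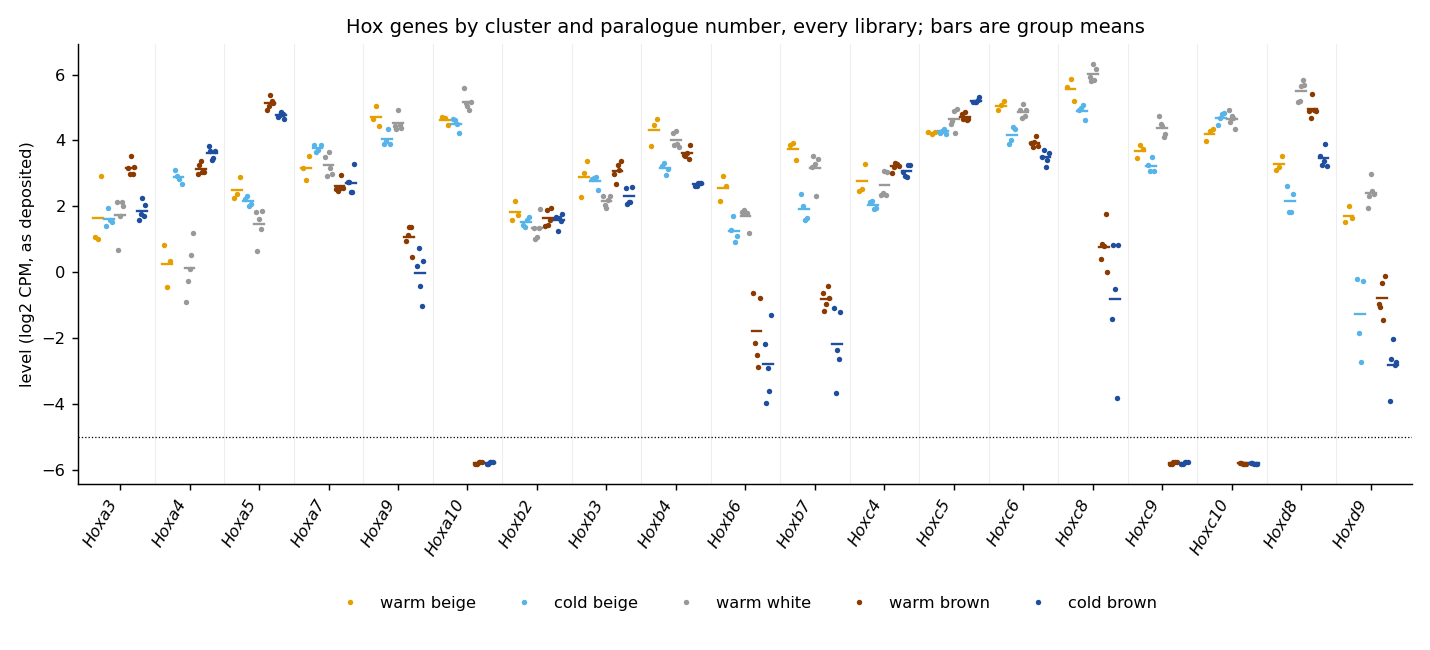
Level in log2 CPM of the 19 measured Hox genes in each of the 22 libraries, in cluster order, with points for libraries and bars for group means. The dotted line marks the floor at −5 log2 CPM, where all 10 brown libraries of Hoxa10, Hoxc9 and Hoxc10 lie, and Hoxa5 is the Hox gene whose brown libraries all lie above the inguinal ones.

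Genes of position were also counted in 2 lists, which hold most of the Hox genes given above together with other genes. Of 15 measured inguinal and posterior positional genes, 10 of them Hox genes, 13 were called higher and 1 lower in inguinal fat (against 42.6% called higher, 41.6% called lower and 84.3% called in all over all rows, limma), and 8 had no overlap. Their median difference was 3.30 log2 units, and 2.64 with 1 CPM added to every value, where all rows had a median of 0.01. Shox2, a homeobox gene of limb development, measured 4.73, 4.51 and 4.89 log2 CPM in warm beige, 5.97, 5.98, 5.80 and 6.03 in cold beige and 4.50 to 5.23 in warm white, against −1.87 to −0.44 in warm brown libraries and −0.27 to 1.33 in cold brown. Cold libraries were the higher ones in beige and in brown fat alike: rewarming lowered Shox2 by −1.24 ± 0.32 in beige fat (adjusted p = 0.0016) and −1.71 ± 0.27 in brown fat (adjusted p = 5.6e-06). Tbx15, a T-box transcription factor, ranged from 3.87 to 5.60 log2 CPM in inguinal libraries and from 0.71 to 2.33 in brown libraries. The homeobox gene En1 was called higher in inguinal fat (1.38 ± 0.22, adjusted p = 3.8e-06) but was −0.08 with quantile normalization.

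Of 13 measured interscapular and anterior positional genes, 9 of them Hox genes, 7 were called lower in inguinal fat and 3 higher. In this list 76.9% were called and 23.1% had no overlap, against 84.3% and 14.2% of all rows. Of these 13, 2 had no overlap on the brown side (Zic1 and Hoxa5) and 1 on the inguinal side (Hoxb6), and the median difference was −0.58. Zic1 lay between −5.83 and −5.73 log2 CPM in all 12 inguinal libraries, at the floor, with 3.79, 3.75, 3.95, 3.88 and 3.74 in warm brown and 3.80, 4.30, 4.25, 4.16 and 4.21 in cold brown. No inguinal library held it above the floor, and warming within brown fat did not pass the limma test (−0.32 ± 0.36, adjusted p = 0.43), with the limit given for Hoxa10. The LIM homeobox gene Lhx8 was lower in inguinal fat by −0.68 ± 0.11 with overlap (adjusted p = 6.6e-06), a call that ended with 2 groups of libraries of equal weight (−0.63).

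Among 24 other homeobox and T-box genes, 14 were called higher and 6 lower in inguinal fat, and 9 had no overlap. The shares were 83.3% called and 37.5% without overlap, against 84.3% and 14.2% of all rows. Prrx1, Tshz2, Tbx3 and Emx2 lay above brown in every inguinal library, and Hlx, Pbx3, Six4, Zeb1 and Tshz1 lay below. Emx2 measured 1.58, 1.40 and 1.11 log2 CPM in warm beige, 0.87, 0.86, 0.43 and 0.71 in cold beige and 2.54 to 3.09 in warm white, with all brown libraries at the floor (−5.82 or −5.74). Its white libraries all lay above its beige ones, and the difference of warm beige from warm white was −1.41 ± 0.47 (adjusted p = 0.021, limma). The teashirt genes parted: Tshz2 ranged from 3.54 to 4.99 log2 CPM in inguinal libraries and 1.64 to 2.08 in brown libraries, and Tshz1 averaged 5.46 in inguinal and 6.47 in brown fat. Tbx1, a T-box gene reported as a beige marker, measured 2.33 to 3.35 log2 CPM in all 7 beige libraries but −3.09 to 0.31 in warm white, against −5.82 to −2.75 in brown, so the depots overlapped through the white libraries.

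In all, 5 genes were at the floor in every brown library and above it in every inguinal library: Hoxa10, Hoxc9, Hoxc10, Emx2 and Gsc. Gsc, the homeobox gene goosecoid, measured 0.28, 2.12 and 2.78 log2 CPM in warm beige, −1.08 to 0.47 in cold beige and 0.73 to 1.86 in warm white. The reverse held for Zic1 and for AF529169, which measured 1.54 to 2.18 log2 CPM in warm brown libraries and −3.70 to −1.30 in cold brown. AF529169 was low in each cold brown library, and rewarming raised it by 4.14 ± 0.77 in brown fat (adjusted p = 5.5e-05, limma).

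The 12 genes with the largest difference among those higher in every inguinal library are given by role. Ranking used log2(CPM + 1), which understates the change of low genes, and required a mean of at least 2 log2 CPM in the higher depot. Retn, which encodes the adipokine resistin, came first. It measured 7.38, 8.56 and 8.37 log2 CPM in warm beige, 6.47, 6.50, 7.14 and 6.67 in cold beige and 9.24 to 9.44 in warm white. In brown fat it measured 1.66 to 2.32 in warm libraries and −0.62 to 1.29 in cold ones. Its nearest libraries were 4.15 log2 units apart, and the difference was 6.31 on the log2(CPM + 1) scale.

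Complement component C4b had an inguinal median of 10.43 log2 CPM (range 6.00 to 11.46) and a brown median of 2.41 (range −0.85 to 5.96). Its depots nearly met, since warm brown averaged 5.26 ± 0.53 and cold beige 6.47 ± 0.38 (SD, n = 5 and 4). Trf, the iron carrier transferrin, had a median of 10.53 (7.35 to 12.15) in inguinal fat against 4.03 (1.86 to 4.90) in brown fat, a difference of 6.05 on the log2(CPM + 1) scale. Chst1, a sulfotransferase of carbohydrate chains, had a median of 8.08 (4.34 to 9.29) in inguinal fat against 0.82 (−0.66 to 1.59) in brown fat.

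Receptors of this group were Ffar2, for short-chain fatty acids, and Cmklr1, for the adipokine chemerin. Ffar2 had a median of 7.18 log2 CPM (4.57 to 8.33) in inguinal fat against −0.91 (−2.92 to 0.31) in brown fat. Cmklr1 measured 6.56, 7.05 and 6.58 in warm beige, 4.13, 3.29, 4.20 and 4.07 in cold beige and 7.89 to 8.82 in warm white, against −0.19 to 0.40 in warm brown libraries and −2.03 to 0.17 in cold brown. Every warm library of Cmklr1 was above every cold library within the inguinal depot.

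Of the secreted factors, Igfbp4, which binds insulin-like growth factors, averaged 8.43 ± 0.32, 6.77 ± 0.42 and 9.72 ± 0.13 log2 CPM in warm beige, cold beige and warm white, and 3.08 ± 0.19 and 2.87 ± 0.47 in warm and cold brown (SD). Fgf10, a growth factor of adipose and limb development, had a median of 6.61 (5.35 to 7.93) in inguinal fat against 0.61 (−3.57 to 3.17) in brown fat. Serpina3n, a protease inhibitor, had 5.41 (2.46 to 8.79) in inguinal fat against −1.77 (−5.68 to 0.53) in brown fat. The lowest inguinal values of Serpina3n were in cold beige and its highest in warm white, and 1 brown library lay at the floor.

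The plasma membrane calcium pump gene Atp2b4 had a median of 8.46 log2 CPM (6.26 to 9.83) in inguinal fat against 2.80 (1.06 to 4.03) in brown fat. Slc25a10, the mitochondrial dicarboxylate carrier, had 7.29 (6.14 to 8.89) in inguinal fat against 2.21 (0.93 to 2.90) in brown fat. The collagen gene Col5a2 had 8.74 (6.02 to 9.87) in inguinal fat against 3.15 (1.82 to 4.43) in brown fat. In 11 of these 12 genes cold beige had the lowest mean and warm white the highest of the 3 inguinal groups. The exception was Slc25a10, with its lowest mean in warm beige.

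The 12 genes with the largest difference among those lower in every inguinal library had cold beige as the highest and warm white as the lowest inguinal group in 9 cases, the others being Zic1, Fam134b and Ankrd33b. Kng2, a kininogen gene, measured −0.59, −1.20 and −5.55 log2 CPM in warm beige, 6.62, 6.62, 6.69 and 6.59 in cold beige and −6.01 to −1.96 in warm white. It measured 7.10 to 7.92 in warm brown libraries and 7.82 to 8.51 in cold brown, so the nearest libraries of the depots, cold beige and warm brown, were 0.41 apart. On the log2(CPM + 1) scale the depot difference was −5.46. Of the 3 rewarmed beige libraries 1 was at the floor and the others above it, and the change of Kng2 in brown fat did not pass the test (−0.71 ± 0.71, adjusted p = 0.38, limma).

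Slc29a1, the equilibrative nucleoside transporter, kept its distance in every group. It measured 3.20, 3.46 and 3.22 log2 CPM in warm beige, 4.07, 3.91, 3.92 and 3.92 in cold beige and 0.62 to 2.41 in warm white, against 6.47 to 6.93 in warm brown libraries and 7.46 to 7.81 in cold brown. Its nearest libraries were 2.40 log2 units apart. Ankrd33b ranged from −1.36 to 2.18 in inguinal and 4.11 to 5.64 in brown libraries, with its highest inguinal values in warm beige.

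Of the mitochondrial and metabolic genes, Me3, a mitochondrial malic enzyme, averaged 2.91 ± 0.23 log2 CPM in warm beige, 5.43 ± 0.58 in cold beige and −3.99 ± 1.71 in warm white, against 7.12 ± 0.58 in warm brown and 6.67 ± 0.65 in cold brown (SD). Gmpr, which converts GMP to IMP, averaged 3.65 ± 0.51, 7.62 ± 0.23 and 2.04 ± 0.56 in the inguinal groups in that order, against 7.99 ± 0.19 in warm brown and 9.80 ± 0.25 in cold brown. In both genes cold beige was the inguinal group nearest to brown and white was the farthest.

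Kcnj11, the pore subunit of an ATP-sensitive potassium channel, had all 5 white libraries at the floor and 3.38 ± 0.14 log2 CPM in cold beige, against 4.92 ± 0.15 in warm brown and 5.48 ± 0.18 in cold brown. Arhgdig was at the floor in all white libraries and in 2 of 3 warm beige libraries, with 3.79 to 4.15 in cold beige and 4.92 to 5.52 in brown. Clic5, Myo5b and Txlnb followed the same order, with cold beige the highest inguinal group and white the lowest. Fam134b, a receptor for selective autophagy of the endoplasmic reticulum, differed in that warm beige was the highest inguinal group (3.50 ± 0.51 against 2.61 ± 0.23 in cold beige), and warm brown stood above cold brown as well (7.04 ± 0.20 against 5.02 ± 0.11).

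**Figure D3:**
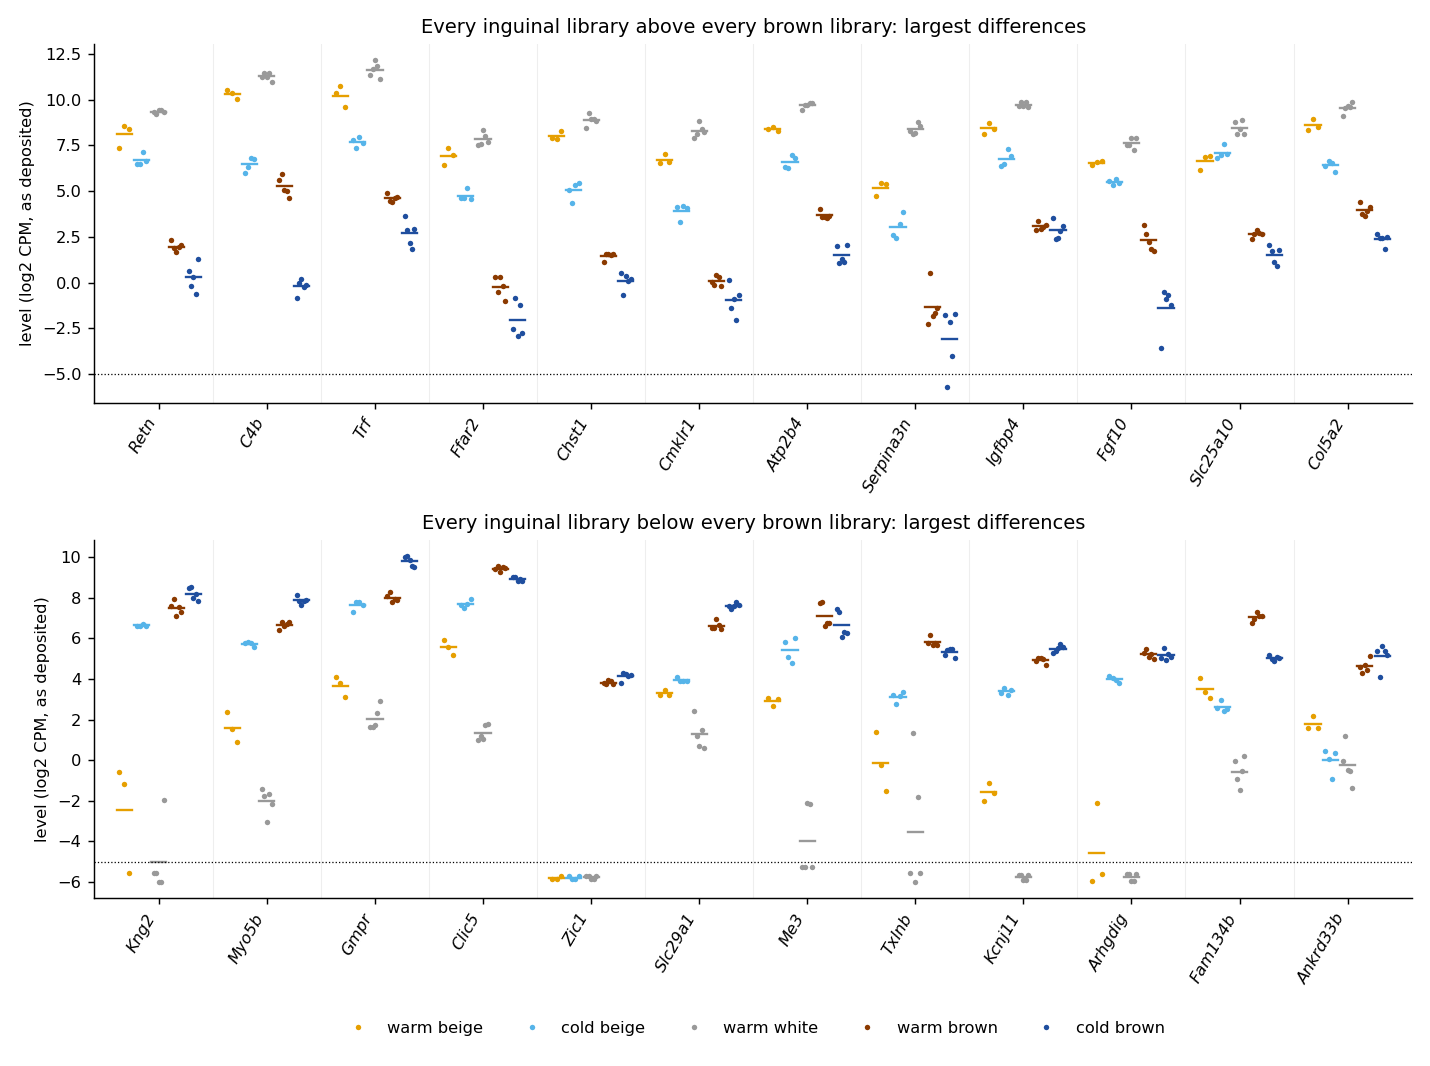
Level in log2 CPM of the 12 genes with the largest depot difference among those higher (upper panel) and lower (lower panel) in every inguinal library, with 1 point per library and the floor at −5 dotted. In the upper panel the cold beige points come nearest to brown for most genes, as for C4b. In the lower panel white points reach the floor for genes such as Kcnj11, where cold beige measured 3.38 ± 0.14.

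The width of the space between the depots was unequal. Among genes higher in inguinal fat the median gap between the nearest libraries was 0.39 log2 units, 223 had a gap of at least 1 (1.92% of all rows) and 66 a gap of at least 2. Among genes lower in inguinal fat the median gap was 0.18, 24 had a gap of at least 1 (0.207% of all rows) and 5 a gap of at least 2. These 5 were Zic1, Slc29a1, Lancl3, Foxp2 and Sele, named after their values were seen. Foxp2, a forkhead transcription factor, ranged from −5.86 to −0.84 log2 CPM in inguinal libraries and from 1.57 to 4.11 in brown libraries. Sele, the endothelial adhesion molecule E-selectin, ranged from −5.90 to −0.07 in inguinal and 2.04 to 4.25 in brown libraries. The endothelial marker list was called in the other direction for 12 of 16 genes. That is 75% called and 0% without overlap, against 84.3% and 14.2% of all rows. The endothelial sums of warm white (78.6 to 128 CPM) lay below those of warm brown (187 to 325 CPM), and those of warm beige (797 to 1230 CPM) above.

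On the higher side, wide gaps were also seen for Ptges, a prostaglandin E synthase (4.17 to 6.18 log2 CPM in inguinal, −1.43 to 0.51 in brown libraries), for Gata6, a zinc-finger transcription factor (2.63 to 4.47 in inguinal, −3.11 to −0.82 in brown libraries), and for Mfng, a Notch-modifying glycosyltransferase (4.88 to 7.71 in inguinal, 0.98 to 2.04 in brown libraries). The cell cycle gene Ccnd2 ranged from 6.71 to 9.42 in inguinal and 2.60 to 4.49 in brown libraries, and the collagen gene Col5a3 from 7.37 to 9.85 in inguinal and 3.69 to 5.08 in brown libraries. These examples were likewise chosen after their values were seen.

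A further set was chosen for the least movement inside the depots among genes with a clear depot difference. They were taken as the non-overlapping genes with a difference of at least 2 on the log2(CPM + 1) scale and the smallest changes with warming and between warm beige and white. On the higher side they were Mir143hg, Spaca6, Hoxc10, Hoxa10, Lrfn4, Car5b, Tshz2 and Cald1. Car5b, a mitochondrial carbonic anhydrase, averaged 7.34 ± 0.35, 7.01 ± 0.36 and 7.92 ± 0.14 log2 CPM in warm beige, cold beige and warm white and 5.22 ± 0.11 and 5.10 ± 0.14 in warm and cold brown (SD). Mir143hg, a microRNA host transcript, ranged from 0.72 to 3.30 in inguinal libraries and from −2.77 to 0.00 in brown libraries. Cald1, the actin-binding caldesmon, ranged from 4.02 to 5.73 in inguinal and 1.34 to 3.25 in brown libraries.

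On the lower side the genes with the least movement were Zic1, Xk, Cyp27a1, Got2, Hoxa5, Tmem45b, Mlph and BC029214. Cyp27a1, the mitochondrial sterol 27-hydroxylase, averaged 4.50 ± 0.42, 5.03 ± 0.09 and 3.59 ± 0.38 log2 CPM in the inguinal groups in the order above, against 6.54 ± 0.14 and 6.42 ± 0.19 in warm and cold brown (SD). Got2, the mitochondrial aspartate aminotransferase, ranged from 1.68 to 3.55 in inguinal and 4.60 to 5.75 in brown libraries. Mlph, which links vesicles to a myosin motor, ranged from −2.96 to 0.39 in inguinal and 1.88 to 3.43 in brown libraries. Of these 16 genes, 4 were homeobox or zinc-finger genes of the positional lists (Hoxa10, Hoxc10, Hoxa5 and Zic1).

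Over all genes without overlap, 417 of the 909 higher ones (45.9%) and 488 of the 735 lower ones (66.4%) had every within-depot difference under 1 log2 unit, against 53.6% of all rows. Within beige fat, rewarming raised 509 and lowered 23 of the higher genes, and raised 12 and lowered 512 of the lower genes (all rows 72.9% called, 36.0% raised and 36.9% lowered, limma). Within brown fat, rewarming raised 419 and lowered 119 of the higher genes, and raised 191 and lowered 142 of the lower genes (all rows 71.3% called, 41.2% raised and 30.1% lowered). The median warming change of the higher genes was 0.67 in beige and 0.40 in brown fat, and that of the lower genes −0.57 in beige and 0.00 in brown fat. Between warm beige and warm white, 109 of the higher genes were called higher in beige and 271 lower, and 178 of the lower genes were called higher and 122 lower (all rows 39.4% called, 17.0% higher and 22.4% lower). Of all 1644 genes, cold beige was the inguinal group nearest to brown in 80.3%, against 66.7% of all rows. The rule asks cold beige to stay on the inguinal side, so it bears on these shares.

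**Figure D4:**
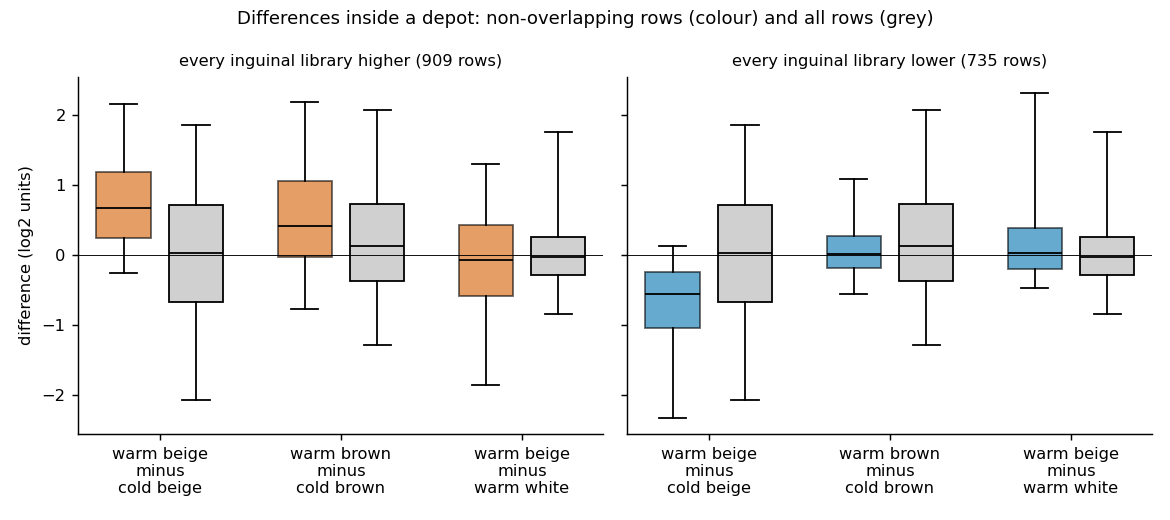
Differences inside a depot in log2 units (warm beige minus cold beige, warm brown minus cold brown, warm beige minus warm white), in colour for genes without overlap and in grey for all rows. Boxes show quartiles, the line the median and whiskers the 5th and 95th percentiles. With rewarming, beige medians lie at 0.67 for the higher genes and −0.57 for the lower genes, and brown medians at 0.40 and 0.00.

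The depot difference was then measured at each temperature, with separate libraries. Between the rewarmed groups 8758 rows were called (75.5%; 35.3% higher and 40.1% lower in beige), and between the cold groups 7184 (61.9%; 34.7% higher and 27.2% lower in beige). The depot difference itself changed with temperature in 5477 rows (47.2%). Genes higher in every inguinal library had a median difference of 2.22 after rewarming and 1.97 in the cold, and 231 of them widened upward and 60 narrowed. Genes lower in every inguinal library had a median of −1.34 after rewarming and −0.67 in the cold, and 454 of them (61.8%) moved further down after rewarming while 7 moved up. Over all rows 14.8% moved up and 32.4% moved down. The rule was applied to these same libraries and fixes the side of each, so it bears on these shares as well.

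**Figure D5:**
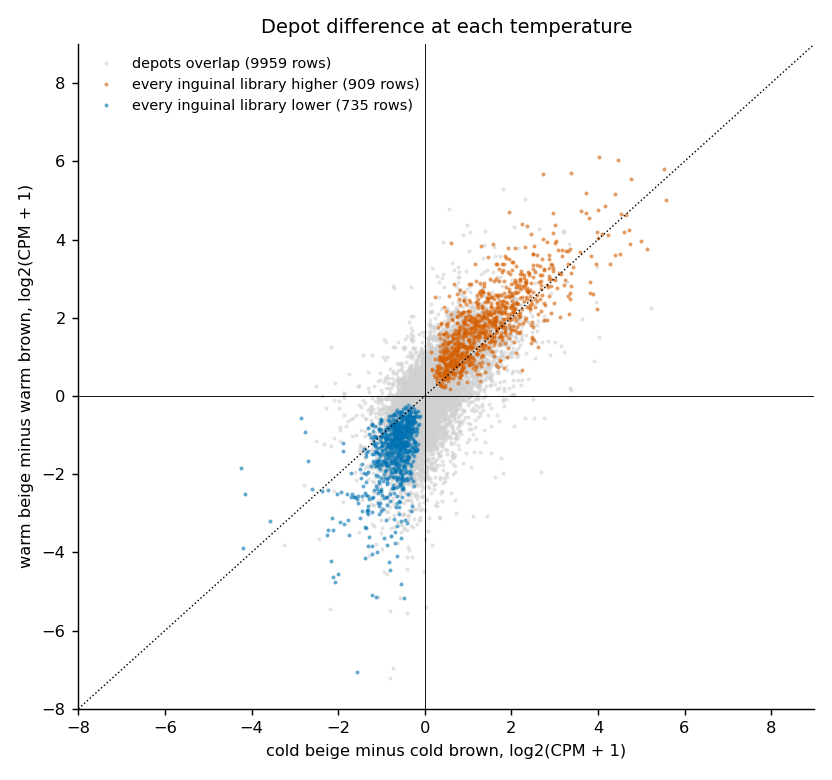
Depot difference in the cold (cold beige minus cold brown, x axis) against that after rewarming (warm beige minus warm brown, y axis), both on the log2(CPM + 1) scale, with 1 point per row. The 909 higher and 735 lower genes without overlap are coloured and the other 9959 rows are grey. Many of the lower genes lie below the dotted diagonal, which marks equal differences.

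The genes without overlap whose depot difference changed most on rewarming, in the positive direction, were Eln, Fkbp5, Fgf2, Cmklr1, Itgb4 and Gldn. Eln, which encodes elastin, measured 7.14, 7.90 and 6.93 log2 CPM in warm beige, 3.70 to 4.31 in cold beige and 4.29 to 4.90 in white, against 0.40 to 1.50 in warm brown libraries and −0.39 to 1.77 in cold brown. It was highest in the 3 rewarmed beige libraries, above white and cold beige alike, and its depot difference grew by 2.75 ± 0.55 log2 units (adjusted p = 2.8e-04, limma). The endothelial marker sum was also highest there, at 797 to 1231 CPM in warm beige, 257 to 566 in cold beige and 78.6 to 128 in white. The smooth muscle and pericyte sum was 524 to 859 CPM in warm beige, 286 to 529 in cold beige and 219 to 340 in white, and the part of these cells in the change of Eln was not tested. Fkbp5, a co-chaperone of the glucocorticoid receptor, changed by 2.79 ± 0.48 (adjusted p = 4.9e-05), and Fgf2, a fibroblast growth factor, by 2.51 ± 0.64 (adjusted p = 0.0027), with 4.06 to 4.52 log2 CPM in warm beige and 0.88 to 1.37 in cold beige. Cmklr1 changed by 1.76 ± 0.44 (adjusted p = 0.0024) and the integrin gene Itgb4 by 1.56 ± 0.60 (adjusted p = 0.038), a call that ended when any 1 of 9 libraries was left out. These were warm beige 2, cold beige 1, 2 and 3, warm brown 2, 3 and 4, and cold brown 1 and 5, and the value of Itgb4 without one of them was 1.25 (without cold brown 1) to 1.52 (without cold beige 1). The call of Itgb4 ended as well without the 4 libraries high in endothelial markers (1.295). Gldn, gliomedin, was lower in every inguinal library, and its change of 4.04 ± 1.28 (adjusted p = 0.012) came with −1.69 to 0.32 log2 CPM in warm brown against 1.78 to 3.74 in cold brown. Its inguinal values were low, at −5.91 to −2.05 in warm beige and −5.91 to −3.27 in cold beige. Both beige groups include a library at the floor, so the size of the change depends on it. Within batch 1 the values were 2.36 for Eln, 2.69 for Fgf2, 1.92 for Cmklr1, 0.875 for Itgb4 and 4.70 for Gldn. Warm beige 3 was the only warm beige library there, so calls are not given. The call of Gldn ended within batch 2 (3.98).

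In the negative direction, Pm20d1, a secreted enzyme that makes N-acyl amino acids, measured 1.18, 0.96 and 0.52 log2 CPM in warm beige, 4.68, 4.89, 5.09 and 5.01 in cold beige and 0.49 to 1.97 in white, against 6.01 to 6.82 in warm brown libraries and 5.27 to 5.64 in cold brown. Rewarmed beige fell to the white range (−4.03 ± 0.24, adjusted p = 1.4e-12) while brown rose (0.84 ± 0.20, adjusted p = 7.9e-04), and the depot difference changed by −4.87 ± 0.31 (adjusted p = 4.9e-11, limma). Col12a1, a fibril-associated collagen, measured 1.50 to 1.81 in warm beige, 3.89 to 4.05 in cold beige and −0.99 to 0.88 in white, against 6.80 to 7.65 in warm brown libraries and 4.25 to 4.79 in cold brown (−5.05 ± 0.42, adjusted p = 1.7e-09), and its rewarmed beige libraries stayed above the white ones. The keratin gene Krt80 changed by −3.95 ± 0.42 (adjusted p = 8.1e-08). The values of Kng2 (−8.37 ± 1.11, adjusted p = 1.9e-06), Arhgdig (−8.59 ± 0.69, adjusted p = 1.3e-09) and Cfap54 (−7.05 ± 1.04, adjusted p = 7.7e-06) include warm beige libraries at the floor, so their size depends on it.

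Thermogenic genes were lower in inguinal fat as a list. Of 28 measured, 27 were called lower and 1 higher (limma, against 84.3% of all rows called), and 5 had no overlap (17.9%, against 14.2% of all rows). The median of the 28 was −3.40 over all groups, −3.06 between the rewarmed groups and −0.37 between the cold groups. In 23 of the 28 the depot difference moved down on rewarming and in 1 up. Ucp1, the uncoupling protein, overlapped widely: it averaged 1.03 ± 0.59 log2 CPM in warm beige, 11.34 ± 0.25 in cold beige and −2.82 ± 1.72 in warm white, against 8.84 ± 0.32 in warm brown and 12.15 ± 0.28 in cold brown (SD). Between the cold groups its difference of −0.81 ± 0.52 did not pass the test (adjusted p = 0.18, limma). Every cold beige library (11.16 to 11.71) nevertheless lay below every cold brown one (11.92 to 12.49). The SE draws on a spread shared by all groups, to which the wide white group adds. Between the rewarmed groups the difference was −7.82 ± 0.57 (adjusted p = 3.9e-11). Cidea, a lipid droplet protein of brown fat, likewise passed the test only between the rewarmed groups (−0.35 ± 0.27, adjusted p = 0.26 in the cold, and −2.47 ± 0.29, adjusted p = 8.3e-08 after rewarming).

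Of the 5 genes of this list without overlap, Esrrg, an oestrogen-related receptor that acts on mitochondrial genes, measured 3.61 to 3.93 log2 CPM in warm beige, 5.84 to 6.17 in cold beige and −5.61 to −0.03 in white, against 6.36 to 6.79 in warm brown libraries and 6.39 to 6.83 in cold brown. Its values were level between the temperatures in brown fat and stepped in the inguinal depot. The change of the Esrrg depot difference with temperature did not pass the limma test. Ebf2, a transcription factor of brown preadipocytes, averaged 6.01 log2 CPM in inguinal and 7.12 in brown fat, and Pank1, a pantothenate kinase of coenzyme A synthesis, 7.10 in inguinal and 10.49 in brown fat. Zic1 is given above. Adrb3, the beta3-adrenergic receptor through which cold acts on adipocytes, was the 1 thermogenic gene higher in every inguinal library, averaging 9.44 log2 CPM in inguinal and 7.74 in brown fat.

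Genes of the respiratory chain and of fatty acid oxidation were lower in inguinal fat mainly after rewarming. Of 52 respiratory chain genes, 48 were called lower and 2 higher in inguinal fat (limma), none lay without overlap, and the median was −1.55 between the rewarmed groups and −0.14 between the cold groups. The depot difference moved down on rewarming in 47 of the 52. Of 30 fatty acid oxidation genes, 25 were called lower and 4 higher, with medians of −1.27 after rewarming and −0.15 in the cold, and Hsd17b10, a mitochondrial dehydrogenase, was the 1 gene without overlap (inguinal mean 5.71, brown mean 7.63). Cpt1b, the carnitine palmitoyltransferase of muscle and brown fat, averaged 4.76 in inguinal and 9.89 in brown fat, with overlap. Of 24 lipogenesis genes, 14 were called lower and 5 higher, and with 2 groups of libraries of equal weight 9 were called in all. The shares called in these 3 lists were 96.2%, 96.7% and 79.2%, against 84.3% of all rows. Those without overlap were 0%, 3.33% and 4.17%, against 14.2% of all rows. Srebf1, a transcription factor of lipid synthesis, was higher in every inguinal library (mean 9.54 in inguinal, 8.55 in brown fat).

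White adipocyte genes were higher. Of 17 measured, 16 were called higher and none lower in inguinal fat (limma, 94.1% called, against 84.3% of all rows). Adipoq was the gene that was not called. A gap was found for 7 of the 17 (41.2%, against 14.2% of all rows): Retn, Fabp4, Slc7a10, Hoxc10, Hoxc9, Ccdc80 and Nrip1. Fabp4, a fatty acid carrier, averaged 11.71 log2 CPM in inguinal and 10.76 in brown fat, and Nrip1, a nuclear receptor co-repressor, 7.62 in inguinal and 5.17 in brown fat. Lep, which encodes leptin, overlapped because warm brown (7.29 to 8.43 log2 CPM) lay above cold beige (5.08 to 6.72), although each inguinal group lay above the brown group of its temperature. Its depot difference was 1.51 ± 0.38 after rewarming (adjusted p = 0.0011) and 4.46 ± 0.35 in the cold (adjusted p = 6.0e-10). Nnat, neuronatin, had the same form, with 6.58 to 8.10 in warm brown against 3.66 to 5.84 in cold beige.

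Of 10 measured genes reported as beige markers, 6 were called higher and 4 lower in inguinal fat, and Sp100, Shox2, Slc27a1 and Hoxc9 were higher in every inguinal library. This is 100% called and 40% without overlap, against 84.3% and 14.2% of all rows. Slc27a1, a fatty acid transport protein, averaged 9.38 log2 CPM in inguinal and 8.00 in brown fat, and Sp100, a nuclear body protein, 3.38 in inguinal and 0.49 in brown fat.

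Extracellular matrix genes had 15 members without overlap. Of 34 collagen and laminin genes, 27 were called higher and 4 lower (limma), 14 were higher in every inguinal library and 1, Col12a1, was lower. As shares, 91.2% were called and 44.1% had no overlap, against 84.3% and 14.2% of all rows. Col1a1, a chain of type I collagen, averaged 9.97 ± 0.61, 7.17 ± 0.40 and 8.67 ± 0.35 log2 CPM in warm beige, cold beige and warm white, against 4.75 ± 0.65 in warm brown and 2.54 ± 0.65 in cold brown (SD). Col3a1, of type III collagen, ranged from 8.55 to 11.61 in inguinal and 3.87 to 7.11 in brown libraries, and Col5a1 averaged 7.48 in inguinal and 2.71 in brown fat. The group means of Col1a1 were higher after rewarming than in the cold in both depots.

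The fibroblast and preadipocyte markers moved in the same way. Of 14 measured, 13 were called higher and 1 lower in inguinal fat, and 9 were higher in every inguinal library. Their sum ranged from 8190 to 12100 CPM in warm beige, 1690 to 2090 in cold beige and 12000 to 14200 in warm white, against 999 to 1170 in warm brown libraries and 161 to 288 in cold brown. Gsn was its largest member in inguinal fat (11.85 to 12.75 log2 CPM in warm beige, 9.53 to 10.22 in cold beige, 13.03 to 13.27 in white). Members differed between cold beige and white. Pdgfra was 4.22 to 4.63 and 3.58 to 4.75, Cd34 3.61 to 4.28 and 2.57 to 3.70, and Col3a1 8.55 to 9.22 and 11.24 to 11.61. The sum therefore does not measure the number of these cells. None of the defining markers measured was at the floor in all libraries of a depot, and Pdgfra averaged 4.53 log2 CPM in inguinal and 1.68 in brown fat. Gas1 alone was lower (mean 4.46 in inguinal, 7.66 in brown fat). The 3 collagen genes Col1a1, Col1a2 and Col3a1 are members of both lists. Of the macrophage markers, 8 of 8 measured were called higher and 5 had no overlap, among them Mrc1 (mean 4.51 in inguinal, 1.32 in brown fat). Without overlap were 71.4% of the fibroblast and 62.5% of the macrophage markers, against 14.2% of all rows, and 84.3% of all rows were called. The part of these cells in the matrix and complement genes was not tested.

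Signalling lists follow. Of 35 BMP and TGF-beta pathway genes, 27 were called higher and 6 lower (limma). That is 94.3% called, with 17.1% without overlap, against 84.3% and 14.2% of all rows. The genes without overlap on the higher side included the antagonists Chrd and Chrdl1, the ligand Tgfb3, and Bmp1, a protease that cleaves procollagen and chordin. Chrdl1 had an inguinal median of 5.50 log2 CPM (3.03 to 7.87) and a brown median of 0.17 (−0.12 to 0.80), and Chrd 4.31 (2.43 to 5.21) in inguinal and −1.78 (−3.79 to 0.09) in brown fat. The receptor gene Tgfbr2 was lower in every inguinal library (mean 7.10 in inguinal, 8.69 in brown fat). Bmp8b, a ligand of brown fat, averaged −0.69 in inguinal and 2.55 in brown fat, with overlap.

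Of 24 Wnt pathway genes, 14 were called higher and 6 lower (83.3% called, against 84.3% of all rows), and 2 had no overlap (8.33%, against 14.2%). Nkd1, an inhibitor inside the cell, was higher in every inguinal library (−0.60 to 4.16 log2 CPM in inguinal, −2.52 to −0.80 in brown libraries) and the receptor Fzd6 was lower (mean 2.00 in inguinal, 4.32 in brown fat). The receptor Lgr6 averaged −0.77 in inguinal and 7.45 in brown fat but overlapped. Of 33 nuclear receptors, 10 were called higher and 21 lower (93.9% called and 21.2% without overlap, against 84.3% and 14.2% of all rows). Rxra and Rora were higher in every inguinal library (Rxra averaged 8.72 in inguinal and 7.28 in brown fat, Rora 7.01 in inguinal and 6.19 in brown fat), and Esrrg, Nr4a2, Esrrb and Rarb were among those that were lower.

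Interferon response genes were called higher in inguinal fat in 24 of 26 cases and lower in 1 (limma, 96.2% called, against 84.3% of all rows), with a median of 2.00. The 3 without overlap (11.5%, against 14.2% of all rows) were all antiviral genes: Oasl2, Mx1 and Mx2. Oasl2 ranged from 1.18 to 4.53 log2 CPM in inguinal and −2.83 to 1.00 in brown libraries. In 12 of the 26 the depot difference moved down on rewarming, and the list median was 1.33 after rewarming and 2.11 in the cold.

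Cytosolic ribosomal protein genes had 10 called higher and 20 lower of 38, but 8 were lower in every inguinal library and none higher, among them Rpl12, Rplp0, Rpl6, Rpl32, Rpl27, Rps7 and Rpl37. In shares, 78.9% were called and 21.1% had no overlap, against 84.3% and 14.2% of all rows. Rplp0 ranged from 5.23 to 6.04 log2 CPM in inguinal and 6.61 to 7.26 in brown libraries, and Rps7 from 2.83 to 3.84 in inguinal and 4.15 to 5.25 in brown libraries. Many ribosomal protein genes have near-identical processed copies, and how reads were shared between copies was not given in the sources used here, so these values are uncertain.

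For 519 rows the depot difference was called at both temperatures with opposite signs, against 5322 called at both with the same sign. Of the 519, 342 were higher in inguinal fat in the cold and lower after rewarming, and 177 the reverse. These rows cannot belong to the genes without overlap, and the examples here were chosen after their values were seen. Crip2, a LIM-domain protein gene, measured 5.53 to 6.46 log2 CPM in warm beige and 6.05 to 6.93 in cold beige, against 7.60 to 8.21 in warm brown libraries and 2.79 to 4.36 in cold brown. The brown libraries moved around level beige ones, and the mean depot difference over all groups was 0.03 ± 0.19. Hopx, a homeodomain-only gene, ran the other way, at 2.74 to 2.88 in warm beige and 0.70 to 3.02 in cold beige, against 0.77 to 1.43 in warm brown libraries and 4.02 to 4.59 in cold brown. Slc22a2, an organic cation transporter, moved in the inguinal depot instead, with −2.24 to −0.38 in warm beige and 3.52 to 4.34 in cold beige, against 1.73 to 2.94 in warm brown libraries and 1.26 to 2.21 in cold brown.

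At the edge of the rule the genes differed little from those just outside. Just inside on the higher side were Chd6 and Atp13a2, each with a gap of 0.01 log2 units, and just outside Fam129b and Srrm1, whose nearest libraries touched at a gap of 0.00. Just inside on the lower side were Rfwd2 and Ptpra, each with a gap of 0.01, and just outside Crls1 and Aph1a. Fam129b, outside, had a depot difference of 3.08, and Rfwd2, inside, one of −0.29, so the rule does not rank genes by size of difference.

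The count of genes without overlap depended on which groups were set against each other. Warm beige and cold beige against all brown libraries gave 1148 higher and 834 lower genes, and warm white against all brown libraries 3078 higher and 3184 lower. Warm beige against warm brown gave 3772 and 4350, and cold beige against cold brown 3400 and 2887, from fewer libraries. All 909 and 735 genes are in each of these sets by construction. Genes higher in every inguinal library had a median length of 35.2 kb, against 23.8 kb for those lower and 24.8 kb over all rows, for the 866, 721 and 11253 rows matched to a RefSeq gene.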

How the data were processed

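The authors deposited 1 table of log2 CPM with 11603 rows, each a UCSC gene identifier paired with a symbol (11544 distinct symbols), and 22 library columns. The authors worked with HISAT2, featureCounts, Picard and edgeR on mouse build mm10, per the submitters' processing notes. Versions, counting annotation and use of strand are not given in the sources used here. Genes that overlap or have near-identical copies may therefore share reads. The deposited log2 values ran from −7.21 to 15.78, their antilogs summed to 0.859 to 1.10 times the nominal CPM total in each library, and the depth of each library is unknown. Of the 58 samples, 36 chromatin immunoprecipitation samples were not analysed here.

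A limma-trend model (limma 3.58.1 in R 4.3.3) was fitted to the deposited log2 values of all libraries together, with a mean for each of 5 groups, no covariate and 17 residual degrees of freedom. Tests were two-sided, and the Benjamini-Hochberg adjustment ran over all rows with a threshold of 0.05. A filter of at least 1 CPM in at least 3 libraries removed 0 rows. Differences are given ± limma's standard error (SE) and levels ± standard deviation (SD). Values at or below −5 log2 CPM were treated as the floor, and no fold is given where a whole depot lay there.

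The labels call the libraries biological replicates and are silent on whether tissues came from the same animals, so p-values measure the spread between these libraries. The labels name no batch. Rows at the floor took 2 slightly different values, which divided the libraries into 10 and 12, called batch 1 and batch 2 here although no source says what they share. A fit of group and 1 batch term shared by all groups gave coefficients of at most 0.005 log2 units. Averaged over groups, the 2 sets of libraries thus had nearly equal means. Single groups could still differ: in warm beige, Ttn was 6.96 and 7.06 log2 CPM in batch 2 and 4.45 in batch 1. Whether a batch effect was removed before deposit is not given in the sources used here. Removing a batch term with the groups kept would leave coefficients this small by construction. The 17 residual degrees of freedom count no such step and would then be too many.

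Replicate numbers were checked for pairing. Of 39 pairs of same-numbered libraries in different groups, 8 (number in the title) and 7 (number in the description) had deviations correlated above 0.1. Many of these pairs join different temperatures. Within a temperature, beige and brown libraries with the same description number all had positive correlations. These were 0.0653 to 0.205 for the warm and 0.0705 to 0.35 for the cold groups. With the title number they ran from −0.126 to 0.323. Whether such libraries came from the same animal is not known, and the main fit did not pair them.

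Genes named in the text were the positional lists with Ucp1, Cidea, Adipoq, Lep and Nnat, the 12 largest differences without overlap in each direction, the 8 with the least movement inside the depots, the 6 largest depot by temperature changes in each direction, up to 4 members of each list, and the 2 genes on each side of the rule's edge. Genes outside these rules are said to have been chosen after their values were seen, or are given as members of a list without overlap. Values of a few genes under these rules are not reported here. The members and the gene lists were chosen with earlier results of these data known. Sequences, positions and gene lengths came from RefSeq tables of GRCm38.p6, matched by symbol for 11253 rows (97% of all rows). Alternatives were another added constant, filters, scalings, replicate blocks, library weights, group sets, leaving out libraries, and the 2 batches.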

Additional observations from a re-analysis of the deposited data

Results flagged for a closer look

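In 17 of 214 gene and group pairs (7.94%) 1 library stood apart from the others of its group. A library counted as apart when its distance to the next one took up most of the range of its group. Warm beige, with 3 libraries, was left out, and the share expected by chance was not measured. In warm brown, Atp2b4 was 4.03 log2 CPM in library 1 (others 3.55 to 3.62), Chst1 1.11 in library 1 (others 1.52 to 1.59), Hoxa7 2.96 in library 4 (others 2.46 to 2.57) and Txlnb 6.15 in library 2 (others 5.65 to 5.79). In cold brown, library 1 was apart for Zic1 at 3.80 (others 4.16 to 4.30) and for Fgf10 at −3.57 (others −1.22 to −0.51). In cold beige, Cmklr1 was 3.29 in library 2 (others 4.07 to 4.20), Ffar2 5.17 in library 3 (others 4.57 to 4.65), Hoxb3 2.51 in library 4 (others 2.83 to 2.88) and Slc29a1 4.07 in library 1 (others 3.91 to 3.92). In warm white, library 4 was apart for Lhx8 at 3.12 (others 3.62 to 3.81) and for Hoxb7 at 2.33 (others 3.21 to 3.52). White library 5 was apart for Hoxb6 at 1.20 (others 1.79 to 1.90), for Meox2 at −1.42 (others 0.55 to 1.29) and for Kng2 at −1.96 (others −6.01 to −5.55). Hoxa3 was 0.69 in white library 2 (others 1.72 to 2.13) and Hoxa9 4.94 in white library 3 (others 4.34 to 4.48).

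The depot difference changed with temperature, by limma's test of the difference between the rewarmed and the cold comparison (adjusted p below the threshold over all rows), for 35 of the genes examined for it. These were the positional lists, the largest depot differences and the largest depot by temperature changes, and other genes named in the text were not counted. Of the genes lower in every inguinal library, it fell further after rewarming for Pm20d1 (−4.87), Kcnj11 (−4.40), Me3 (−2.97), Col12a1 (−5.05), Txlnb (−3.74), Cfap54 (−7.05), Gmpr (−2.17), Fam134b (−1.13), Krt80 (−3.95), Kng2 (−8.37), Arhgdig (−8.59), Clic5 (−2.65) and Myo5b (−2.93), all in log2 units. Gldn (4.04) and Ankrd33b (2.31) moved up. Of the genes higher in every inguinal library, the difference grew for Chst1 (1.62), Fgf2 (2.51), Tbx15 (0.97), Cmklr1 (1.76), Eln (2.75), Igfbp4 (1.45), Itgb4 (1.56) and Fkbp5 (2.79), and shrank for Slc25a10 (−1.60), Fgf10 (−2.65) and C4b (−1.64). Among genes that overlapped, the change was −7.00 for Ucp1, −2.12 for Cidea, −2.95 for Lep, −1.89 for Nnat, −1.25 for Hoxa3 and −2.16 for Hoxa4. It was 0.66 for Lhx8, 0.45 for Hoxc6 and 0.47 for Hoxc5.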

How the results depend on the processing

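Counts of calls stayed within 1.5 times the reported count in 850 of 859 recomputed values. The 9 others follow. Within batch 1, with 10 libraries, 3710 rows were called between the cold groups, 1969 for depot by temperature, 5255 for warming in beige, 5050 for warming in brown and 1304 for warm beige against white. Rows without overlap numbered 2489 within batch 1 and 2528 within batch 2, where fewer libraries must be parted. With a gap of at least 1 log2 unit there were 247. With 2 groups of libraries of equal weight, 9 lipogenesis genes were called, against 19. Leaving out 1 library at a time gave 1652 to 1856 rows without overlap, the most without cold beige 4, and 9655 to 9790 depot calls. Without the 4 libraries high in endothelial markers, an alternative chosen after seeing the data as were the batches, 1072 higher and 1020 lower rows lay without overlap. The replicate block gave 9735 (title number) and 9676 (library number) depot calls, against 9776, and did not move any count of calls by more than 1.5 times. A total without the 20 highest rows moved the median of all rows to 0.12 log2 units, with 954 higher and 612 lower rows without overlap. Depot calls, 4947 higher and 4829 lower as reported, were more often lower than higher with quantile normalization (4742 and 4929), median-of-ratios scaling (4808 and 4969), a filter of 5 CPM (4578 and 4728), the beige groups alone (4519 and 4651) and within batch 1 (3978 and 4094). Quantile normalization left 793 higher and 794 lower rows without overlap, against 909 and 735. Depth is unknown, so what it limits could not be measured.

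Signs of the depot difference turned for the following genes, and the cause was not tested. With quantile normalization En1 was −0.0798, Gem −0.490, Prss23 −0.359 and Crip2 −0.0119. With 1 and 5 CPM added, Gem was −0.115 and −0.151, Hip1r −0.0229 and −0.130, Prss23 −0.204 and −0.494, and Crip2 −0.00223 and −0.0954. With median-of-ratios scaling Hip1r was −0.00117. With a total without the 20 highest rows Hoxb3 was 0.0283 and Hoxb2 0.0621. With the beige groups alone Pcolce was 0.0648, Endod1 −0.201, Hoxb3 0.141, Hoxb2 0.0650 and Sik1 0.0418. Within batch 1 Hoxb3 was 0.184 and Hoxb2 0.0222, and within batch 2 Gem −0.315, Hip1r −0.0267 and Crip2 −0.130. With 2 groups of equal weight Hip1r was −0.0102 and Crip2 −0.0410. With the replicate block Hoxb2 was 0.0206 (title number) and Crip2 −0.0274 (library number). With library weights Hoxb2 was 0.000105 and Crip2 −0.0250. Without the 4 libraries Hoxb3 was 0.0471 and Crip2 −0.123. Leaving out 1 library at a time gave −0.0299 to 0.0968 for Hip1r, −0.0821 to 0.114 for Crip2 and −0.164 to 0.0208 for Hoxb3. Over single omissions the depot by temperature value of Itgb4 ran from 1.25 to 1.93. The depot call of Meox2 ended under 18 alternatives, and those of Hoxd8 (−0.38) and Lhx8 (−0.63) with 2 groups of equal weight. Within batch 1 Hoxa3 was −0.39, Hoxc4 −0.40 and Hoxd8 −0.31. Adipoq passed the test without cold beige 4 (−0.20) and with the beige groups alone (−0.55).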

Other observations

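Marker lists of cells not described so far gave these counts in inguinal against brown fat (limma). For comparison, 42.6% of all rows were called higher and 41.6% lower, and 14.2% had no overlap. Of 14 skeletal muscle genes, 11 were called higher and 3 lower, and 1 had no overlap. Their sum was 954 CPM in warm white 2, and 496 and 473 CPM in warm beige 1 and 2, against 53.5 to 186.5 CPM in the other inguinal libraries. The oxygen-binding gene Mb was among the lower ones (mean 0.88 log2 CPM in inguinal, 6.24 in brown fat) and the titin gene Ttn among the higher (mean 3.93 in inguinal, −1.12 in brown fat). Of 10 smooth muscle and pericyte genes, 7 were called higher and none lower. Of 2 measured mammary epithelial genes both were higher, and Trp63, a transcription factor of basal epithelium, lay above brown in every inguinal library (mean 2.95 in inguinal, −3.56 in brown fat). The mesothelial gene Lrrn4 was lower in every inguinal library (mean 1.14 in inguinal, 2.88 in brown fat). Of 3 red blood cell genes, 1 was called higher and 2 lower. Of 2 lymphocyte genes, Ptprc and Cd74, both were called higher. Of 7 brown adipocyte markers, all were called lower and 2 had no overlap, and their sum was 206 to 359 CPM in warm beige, 3830 to 4700 in cold beige and 97.0 to 133 in warm white, against 1550 to 1980 in warm brown libraries and 5710 to 7700 in cold brown. Of 10 adipocyte markers, 6 were called higher and 2 lower. The part of any of these cells in the depot differences was not tested.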
